A study of Mus musculus with 2 samples.

Results

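The collagen genes of mouse were followed in cultured primary brain pericytes (PCs, the mural cells that wrap brain capillaries) by single-cell RNA sequencing. Members were all genes whose symbol is Col, a number, the letter a and a number, which gave 44 of the 31053 genes counted. The cells came from brains of C57BL/6N mice, females of 6 to 8 weeks, and those of 6 animals were pooled for an isolation and grown in culture without endothelial cells. A culture at passage 5 (PC5) and a culture at passage 20 (PC20) were sequenced, 1 library each, with no other treatment. Per the study, cells grew on plates coated with type I collagen and were moved from endothelial to pericyte medium in early passages. The methods of the study give each passage its own isolation, whereas the protocol among the labels mentions a single one, so the effect of passage cannot be told apart from that of isolation. With 1 library a passage there is no replicate and no test was made. Intervals are at the 95% level and cover counting error in these libraries only.

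The filter on cells, above 1000 genes and below 20% mitochondrial counts, left 9950 PC5 cells and 4749 PC20 cells. They held 223054273 and 191122251 unique molecular identifiers (UMIs, each a tagged RNA molecule), with a median per cell of 21700 for PC5 and 33424 for PC20. Levels are given as CPM, the UMIs of a gene summed over the kept cells per 1000000 UMIs of the library. Each molecule was counted once at its 3′ end, so CPM is not divided by gene length. Where single cells are compared, each was cut down to 10500 randomly drawn UMIs, and 8847 PC5 and 4474 PC20 cells were deep enough. The libraries shared 20 cell barcodes. Most pericyte markers were low. *Pdgfrb* was at 44.6 CPM in PC5 against 5.43 CPM in PC20, *Notch3* at 11.1 and 1.60 CPM, *Cspg4* at 5.55 and 0.0994 CPM and *Rgs5* at 1.82 and 0 CPM, whereas *Anpep* was at 1.93 CPM in PC5 against 3.00 CPM in PC20. *Abcc9* had 1 UMI in each library. The 9 pericyte markers listed summed to 65.2 CPM in PC5 against 10.1 CPM in PC20, and 4 of them were at 0 in PC20.

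Collagens are secreted or membrane proteins built from 3 chains that wind around each other, and each chain carries stretches made of repeated triplets of glycine and any other residues (Gly-X-Y). Fibrillar collagens form the fibres of connective tissue, type IV forms the sheet-like network of the basement membrane that pericytes share with endothelial cells, and type VI forms beaded filaments. FACIT collagens sit on fibres, transmembrane collagens span the cell membrane, multiplexins belong to basement membrane zones, type VIII forms a short-chain network around vessels, and type VII forms anchoring fibrils. A chain enters a trimer only with defined partners, so the level of one chain gains meaning beside that of its partner.

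The classes differ in how their triplets are arranged, which is a property of the sequence and no result of the libraries. In the longest coding sequence of each member in the GENCODE annotation, the longest uninterrupted run of Gly-X-Y triplets was 216 to 344 triplets in the 11 fibrillar members. It was 39 to 66 triplets in the 6 basement membrane members, whose helices are broken into 22 to 27 runs of at least 5 triplets. *Col3a1* held the longest run of all members, 344 triplets in 1464 codons, and those of *Col1a1* and *Col1a2* were 338 and 339. The beaded filament members had 3 to 5 runs of at most 87 triplets, and in the 3284 codons of *Col6a3* only 10.0% of residues lay in such runs. These classes were used to group the results.

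Collagen transcripts made up 0.603% of all UMIs in PC5 (0.602% to 0.604%) and 0.0938% in PC20 (0.0934% to 0.0943%), a 6.42-fold difference. Of the 44 members, 42 had a UMI in PC5, and 38 had one in PC20. Expressed members, those detected in 10% or more of cells in PC5 or PC20, numbered 20. Of these, 14 (70%) were at least 2-fold higher in PC5, where 17.9% of all 10504 expressed genes were, and 2 (10%) were at least 2-fold higher in PC20, where 19.1% of all expressed genes were. The other 4 lay within 2-fold. For members that passed the 10% limit only where they were high, the limit favours calls in the direction found. Of the 14, 6 passed it only in PC5 (*Col1a2*, *Col1a1*, *Col5a2*, *Col5a3*, *Col7a1* and *Col4a6*), and of the 2, *Col4a4* passed it only in PC20. The limit was applied at full depth, where PC20 cells held more UMIs. With the limit required in both libraries, 8 and 1 of 13 members were left. The shares of all expressed genes given above are for the limit in either library. The median log2 ratio of PC5 CPM over PC20 CPM was 1.95 over the expressed members and -0.03 over all expressed genes.

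**Figure D1:**
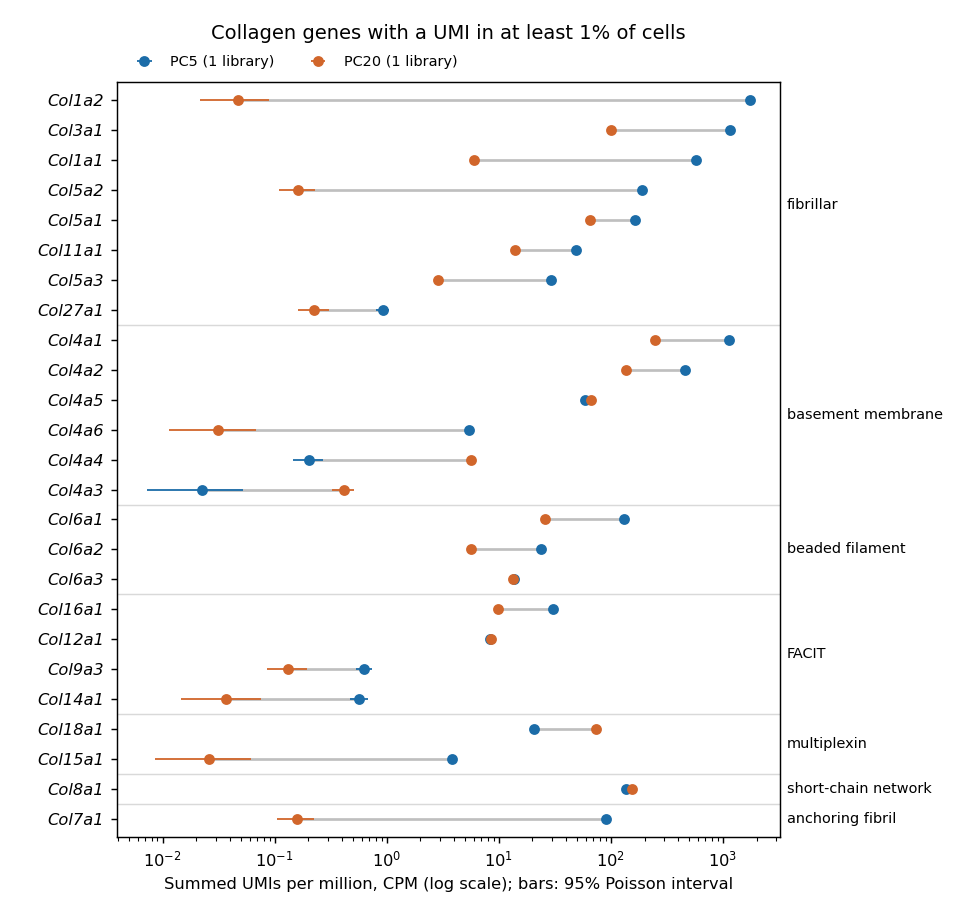
CPM of the 25 collagen genes detected in 1% or more of cells in PC5 or PC20, on a log axis, grouped by class, with 95% Poisson intervals as bars and 1 library per passage. *Col1a2* spans the widest range, from 1737 CPM in PC5 to 0.0471 CPM in PC20, while *Col8a1*, *Col4a5*, *Col6a3* and *Col12a1* nearly coincide.

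The make-up of the collagen transcripts differed as well as their amount. Fibrillar chains gave 64.8% of collagen UMIs in PC5 and 20.1% in PC20, and basement membrane chains gave 27.6% and 48.6%. The single type VIII chain with sizeable counts, *Col8a1*, was 2.25% of collagen UMIs in PC5 and 16.5% in PC20. The multiplexins were 0.407% and 7.91%. In PC5 *Col1a2*, *Col3a1* and *Col4a1* together held 66.9% of collagen UMIs. In PC20 the first 3 were *Col4a1*, *Col8a1* and *Col4a2*, with 57.3%.

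**Figure D2:**
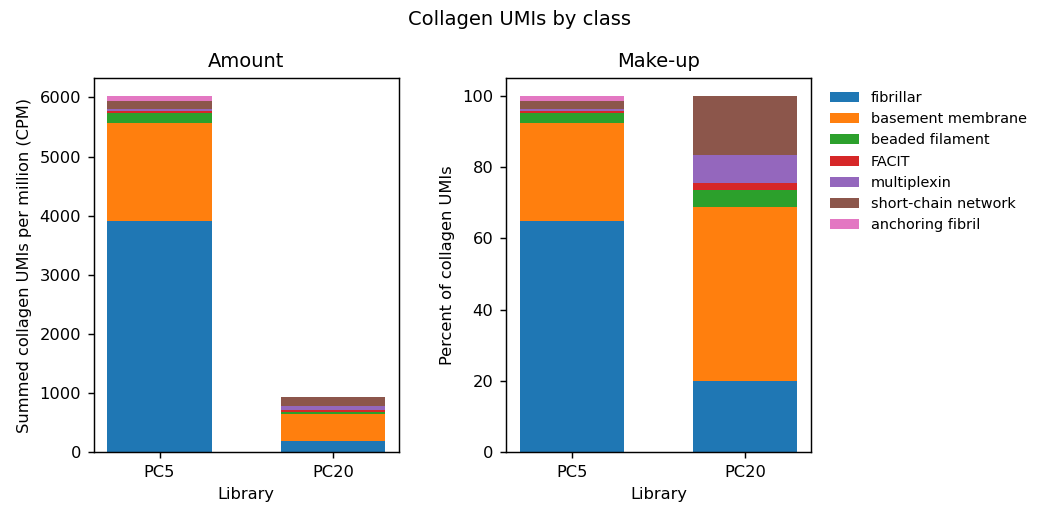
Collagen UMIs by class in PC5 and PC20, as CPM (left) and as percent of all collagen UMIs (right), with 1 library per bar. The fibrillar part is 3902 CPM in PC5 against 189 CPM in PC20, and the basement membrane part is 1661 and 456 CPM.

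Of the classes with more than 1 expressed member, the fibrillar class showed the largest difference, with a log2 ratio of its summed UMIs of 4.37 (4.35 to 4.38). All 7 of its expressed members were more than 2-fold higher in PC5, where 17.9% of all expressed genes were at least 2-fold higher. Of the 7, *Col1a1*, *Col1a2*, *Col5a2* and *Col5a3* passed the detection limit for expressed members only in PC5, which favours calls in the direction found. Only *Col3a1*, *Col5a1* and *Col11a1* passed it in both libraries. Type I collagen is the main fibre of skin, bone and scar, and its chains are *Col1a1* and *Col1a2*. *Col1a2* (ENSMUSG00000029661, GRCm38 chromosome 6) stood at rank 98 of all genes by UMIs in PC5 and at rank 14863 in PC20. It was found in 98.1% of PC5 cells, and its 9 UMIs in PC20 lay in 9 cells, for a log2 ratio of 15.17 (14.25 to 16.30). *Col1a1* (ENSMUSG00000001506, chromosome 11 from 94936224 to 94953042) was at 576 CPM in PC5 against 6.04 CPM in PC20, giving a log2 ratio of 6.57 (6.49 to 6.66). The chains of type I collagen therefore differed between the libraries by unequal amounts.

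In PC5 there were 0.332 *Col1a1* UMIs for each *Col1a2* UMI (0.329 to 0.334). In PC20 there were 128 (67.4 to 281). Both chains were detected in 95.9% of thinned PC5 cells. In PC20 0 of 4474 thinned cells held both, 148 held only *Col1a1* and 3 held only *Col1a2*. With *Col1a2* in so few cells, the count of 0 cannot tell whether the chains kept apart.

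The promoter window of *Col1a2* is shown because this gene had the largest log2 ratio of the members, and that of *Col18a1* because it had the most negative one among expressed members with at least 10 CPM. Each window runs from 250 bases before to 50 bases after a RefSeq start (GRCm38.p6), 5′ to 3′ on the gene's strand. Capitals mark the letters CCAAT and GGGCGG on either strand. The *Col1a2* window lies at chr6:4505368-4505667 on the plus strand, with its start 804 bases inside the gene as GENCODE draws it, and the *Col18a1* window at chr10:77166481-77166780 on the minus strand.
Col1a2: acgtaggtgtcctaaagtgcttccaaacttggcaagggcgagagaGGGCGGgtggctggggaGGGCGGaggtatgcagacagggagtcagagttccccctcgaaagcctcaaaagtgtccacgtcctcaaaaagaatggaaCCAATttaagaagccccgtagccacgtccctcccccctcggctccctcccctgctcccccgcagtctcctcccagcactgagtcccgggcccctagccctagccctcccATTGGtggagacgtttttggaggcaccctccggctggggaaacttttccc
Col18a1: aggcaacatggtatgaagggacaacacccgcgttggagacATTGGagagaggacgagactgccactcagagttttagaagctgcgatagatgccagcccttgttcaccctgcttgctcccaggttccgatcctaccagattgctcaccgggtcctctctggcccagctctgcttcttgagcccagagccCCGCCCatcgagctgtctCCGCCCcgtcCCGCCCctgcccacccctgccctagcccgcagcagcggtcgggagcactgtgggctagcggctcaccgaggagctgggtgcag

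In the *Col1a2* window CCAAT was found 2 times and GGGCGG 2 times, and in the *Col18a1* window 1 and 3 times. TATAAA was found in neither. A second RefSeq start of *Col18a1*, with its window at chr10:77113656-77113955, held none of these letters. A window was at hand for 35 members, 38 windows in all. GGGCGG was in 23 of these 38 (60.5%) and in 35.7% of the 32851 windows of all genes, CCAAT in 34.2% and 37.4%, and TATAAA in 13.2% and 13.6%. These are matches of letters and say nothing of binding.

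*Col3a1*, the chain of the type III fibres found in vessel walls, was at 1158 CPM in PC5 against 101 CPM in PC20, with a log2 ratio of 3.52 (3.50 to 3.54). It was the fibrillar gene with the highest level in PC20, where 79.8% of cells held a UMI of it. For type V collagen, which helps to start fibres, the chains again differed: *Col5a1* was at 164 and 65.0 CPM, while *Col5a2* was at 188 CPM in PC5 and had 31 UMIs (0.162 CPM) in PC20. *Col5a2* had a log2 ratio of 10.18 (9.67 to 10.74) and *Col5a1* one of 1.34 (1.31 to 1.36). The ratio of *Col5a1* to *Col5a2* UMIs was 0.873 in PC5 (0.860 to 0.885) against 401 in PC20 (282 to 590). *Col5a3*, the third chain of type V, was at 29.3 and 2.86 CPM.

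*Col11a1*, a chain of the type XI collagen of cartilage, was at 49.2 CPM in PC5 against 13.9 CPM in PC20. *Col27a1* was low in both, with 205 and 43 UMIs. The remaining fibrillar members were near the limit of detection, with 29 and 9 UMIs for *Col11a2*, 20 and 0 for *Col24a1* and 8 and 1 for *Col2a1*, the main collagen of cartilage.

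Markers of other cell types differed between the libraries too, in both directions. The 7 fibroblast markers listed summed to 571 CPM in PC5 against 60.3 CPM in PC20. *Apod* was at 417 and 0.0785 CPM, *Pdgfra* at 88.6 and 0.131 CPM, *Dcn* at 51.3 and 0.167 CPM and *Lum* at 3.57 and 0 CPM, all lower in PC20. *Ogn* went the other way, with 2.19 CPM in PC5 against 59.8 CPM in PC20. The 6 smooth muscle markers summed to 284 and 50.5 CPM. Most of the PC5 sum was *Tagln*, with 219 and 0.230 CPM. Almost all of the PC20 sum was *Acta2*, which lay within 2-fold at 62.8 and 49.2 CPM. *Des* was higher in PC20, with 0.251 and 0.937 CPM. The 5 epithelial markers summed to 0.233 CPM in PC5 against 1012 CPM in PC20, of which *Krt18* gave 913 CPM, in 99.6% of cells, and *Krt8* 98.4 CPM, while *Epcam*, *Cdh1* and *Cldn4* were at 0.267, 0.131 and 0.00523 CPM there. The part of these differences in the collagen values was not tested.

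Endothelial cells make basement membrane collagens too, and their markers were also measured. The 6 endothelial markers summed to 32.8 CPM in PC5 against 74.1 CPM in PC20, the latter almost all *Flt1* (17.6 and 73.9 CPM). *Kdr* went the other way, with 12.8 CPM and 20.3% of cells in PC5 against 0.0680 CPM in PC20, as did *Emcn* (1.65 and 0 CPM), while *Pecam1* was at 0.542 and 0.110 CPM and *Cldn5* at 0.0628 and 0.0419 CPM. The 5 astrocyte markers summed to 157 and 233 CPM, carried by *Slc4a4* (143 and 229 CPM), whereas *Aldh1l1* was at 7.35 and 0.0262 CPM and *Gfap* at 0.435 and 0 CPM. The 3 microglia markers reached 4.04 and 0.795 CPM and the 3 oligodendrocyte markers 0.915 and 0.895 CPM.

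Basement membrane collagen was led by the ubiquitous chains *Col4a1* and *Col4a2*. *Col4a1* (ENSMUSG00000031502) was at 1139 CPM in PC5 against 246 CPM in PC20, with a log2 ratio of 2.21 (2.20 to 2.23), and *Col4a2* (ENSMUSG00000031503) was at 459 and 137 CPM, with 1.74 (1.72 to 1.76). Their ratio to each other moved far less than that of the type I chains, with 2.48 *Col4a1* UMIs for each *Col4a2* UMI in PC5 (2.46 to 2.50) against 1.79 in PC20 (1.76 to 1.82). Both were detected in 97.1% of thinned PC5 cells and 64.4% of thinned PC20 cells.

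The type IV genes lie as head-to-head pairs in the genome. *Col4a1* (minus strand) and *Col4a2* (plus strand) overlap by 22 bases at their 5′ ends on chromosome 8, and their promoter windows share 78 bases. The windows of this pair are shown because they overlap. They lie at chr8:11312777-11313076 for *Col4a1* and chr8:11312555-11312854 for *Col4a2*, with capitals as above.
Col4a1: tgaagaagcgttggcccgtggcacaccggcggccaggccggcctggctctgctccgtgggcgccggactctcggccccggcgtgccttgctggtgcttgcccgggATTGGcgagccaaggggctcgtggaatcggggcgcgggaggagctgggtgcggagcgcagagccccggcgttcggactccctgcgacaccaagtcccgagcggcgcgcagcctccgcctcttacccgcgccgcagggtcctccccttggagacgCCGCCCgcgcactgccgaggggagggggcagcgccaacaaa
Col4a2: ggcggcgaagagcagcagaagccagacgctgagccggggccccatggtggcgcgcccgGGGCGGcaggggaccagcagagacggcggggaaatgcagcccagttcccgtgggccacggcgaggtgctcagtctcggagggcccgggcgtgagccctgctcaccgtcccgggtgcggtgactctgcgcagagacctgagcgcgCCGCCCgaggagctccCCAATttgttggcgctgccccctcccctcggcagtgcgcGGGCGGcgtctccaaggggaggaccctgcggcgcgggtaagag

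CCAAT was found 1 time in each window, and GGGCGG 1 time in that of *Col4a1* and 3 times in that of *Col4a2*, with no TATAAA. Since the windows overlap and face each other, 1 GGGCGG match is the same place read from both sides. The other type IV pairs behaved in different ways. *Col4a4* and *Col4a3*, whose 5′ ends are 72 bases apart on chromosome 1 and whose chains serve the basement membrane of the kidney filter, were both higher in PC20. *Col4a4* had 45 UMIs in PC5 against 1071 in PC20 (5.60 CPM, 16.6% of cells), and *Col4a3* had 5 and 79, with log2 ratios of -4.80 (-5.26 to -4.37) and -4.20 (-5.87 to -2.92). *Col4a4* was thus 1 of the 2 expressed members more than 2-fold higher in PC20.

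On chromosome X, where the 5′ ends of *Col4a6* and *Col4a5* are 1309 bases apart, the pair was split. *Col4a5* was at 58.5 CPM in PC5 against 67.2 CPM in PC20, giving a log2 ratio of -0.20 (-0.24 to -0.17). *Col4a6* had 1204 UMIs in PC5 against 6 in PC20, giving a log2 ratio of 7.43 (6.30 to 8.87). Hence there were 10.8 *Col4a5* UMIs for each *Col4a6* UMI in PC5 (10.2 to 11.5) against 2142 in PC20 (984 to 5838).

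Neighbours of other classes gave the same mixture. *Col3a1* and *Col5a2* lie tail to tail on chromosome 1 with 24614 bases between them, and their log2 ratios of 3.52 and 10.18 differed by 6.66. On chromosome 10, *Col6a2* and *Col6a1* lie on the minus strand with 85161 bases between them, and had log2 ratios of 2.08 and 2.37. *Col18a1* lies farther off on the same strand, from 77052178 to 77166548 where *Col6a1* ends at 76726168, and had -1.84.

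Beaded filament collagen is assembled from *Col6a1*, *Col6a2* and another chain such as *Col6a3*. *Col6a1* was at 132 CPM in PC5 against 25.6 CPM in PC20, with a log2 ratio of 2.37 (2.32 to 2.41). *Col6a2* was at 23.9 and 5.64 CPM, with 2.08 (1.99 to 2.18). *Col6a3* did not follow them: it was at 13.7 and 13.5 CPM, giving a log2 ratio of 0.02 (-0.05 to 0.10). The ratio of *Col6a1* to *Col6a2* UMIs was 5.53 in PC5 (5.37 to 5.69) against 4.55 in PC20 (4.26 to 4.86), and that of *Col6a1* to *Col6a3* was 9.66 (9.31 to 10.03) and 1.90 (1.81 to 2.00). The alternatives to *Col6a3*, *Col6a4*, *Col6a5* and *Col6a6*, had 0 and 1, 4 and 2, and 10 and 2 UMIs in PC5 and PC20.

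Among the FACIT members, *Col16a1* was at 30.8 CPM in PC5 against 9.92 CPM in PC20, giving a log2 ratio of 1.63 (1.56 to 1.71). *Col12a1*, which binds type I fibres in tissues under load, was at 8.31 and 8.57 CPM, giving a log2 ratio of -0.04 (-0.14 to 0.05). *Col9a3* had 140 and 25 UMIs, *Col14a1* 127 and 7, *Col9a2* 83 and 9 and *Col20a1* 40 and 23. *Col19a1* and *Col22a1* each had 13 in PC5 against 0 in PC20, and *Col9a1* had 4 and 0. The FACIT class as a whole had a log2 ratio of 1.12 (1.07 to 1.18), carried by *Col16a1*.

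The multiplexins were opposed to each other. *Col18a1*, whose C-terminal fragment is endostatin, was at 20.7 CPM in PC5 against 74.2 CPM in PC20, giving a log2 ratio of -1.84 (-1.89 to -1.79), and 28.5% of cells held it in PC5 and 77.1% in PC20. *Col15a1* had 850 UMIs in PC5 against 5 in PC20, with a log2 ratio of 7.19 (5.96 to 8.81).

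*Col8a1*, a chain of the type VIII network of vessel walls, differed little between the libraries, with 136 CPM in PC5 against 155 CPM in PC20 and a log2 ratio of -0.19 (-0.21 to -0.17). Its partner *Col8a2* had 4 and 52 UMIs, so *Col8a1* outnumbered it 7575-fold in PC5 (2958 to 27802) and 570-fold in PC20 (434 to 763). *Col10a1*, of growth plate cartilage, had 1 and 11 UMIs.

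*Col7a1*, the only anchoring fibril chain, was at 90.6 CPM in PC5, where 74.1% of cells held it, and had 30 UMIs (0.157 CPM) in PC20, giving a log2 ratio of 9.17 (8.66 to 9.74). The transmembrane members were scarce, with 89 and 15 UMIs for *Col23a1*, 11 and 12 for *Col17a1*, 7 and 0 for *Col13a1*, and 0 and 15 for *Col25a1*. The members of no listed class were *Col26a1*, with 18 and 8 UMIs, and *Col28a1*, with 19 and 0. As a one-sided 95% limit, a count of 0 allows up to 3 UMIs, or 0.0134 CPM in PC5 against 0.0157 CPM in PC20.

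Shares of cells need a background. Among 10 genes of neurons, blood, heart, liver and pancreas, the highest share of cells with a UMI was 0.995% in PC5 (*Tnnt2*) and 0.147% in PC20, at the median depths given above. After thinning these were 0.497% and 0.0447%. The other 9 of these genes were in at most 0.121% of PC5 cells (*Snap25*), so the PC5 value rests on *Tnnt2*. The 19 members found in under 1% of cells of both libraries lay below the *Tnnt2* share in PC5, but some lay above that of *Snap25*, among them *Col23a1* (0.794%), *Col9a2* (0.764%) and *Col20a1* (0.402%). In PC20 some lay above the background too, up to *Col8a2* with 38 of 4749 cells. Close to the background were the PC20 shares of *Col1a2* (0.190% of cells, 0.0867% to 0.359%), *Col4a6* (0.126%) and *Col15a1* (0.105%), whereas *Col5a2* (0.632%, 0.427% to 0.901%) and *Col7a1* (0.590%, 0.392% to 0.851%) were above it. Of the PC20 UMIs of *Col1a2*, *Col5a2*, *Col7a1*, *Col1a1*, *Col4a6* and *Col15a1*, 0 lay in the 20 barcodes shared with PC5, which held 0.438% of all PC20 UMIs. Apart from *Col1a1*, these genes had at most 31 PC20 UMIs each, and *Col1a1* lay in 6.82% of cells. With so few, the count of 0 cannot tell whether any of these UMIs came from PC5.

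Cell by cell the summed collagen UMIs of the libraries hardly overlapped, whereas those of some single members, such as *Col8a1*, did. In cells thinned to 10500 UMIs, a PC5 cell held a median of 59 collagen UMIs (10th to 90th percentile, 36 to 100) from 10 collagen genes. A PC20 cell held a median of 9 (4 to 16) from 5 genes. Thinned cells without any collagen UMI numbered 4 of 8847 in PC5 and 22 of 4474 in PC20. Of the PC5 cells, 97 (1.10%) lay below the 90th percentile of PC20.

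**Figure D3:**
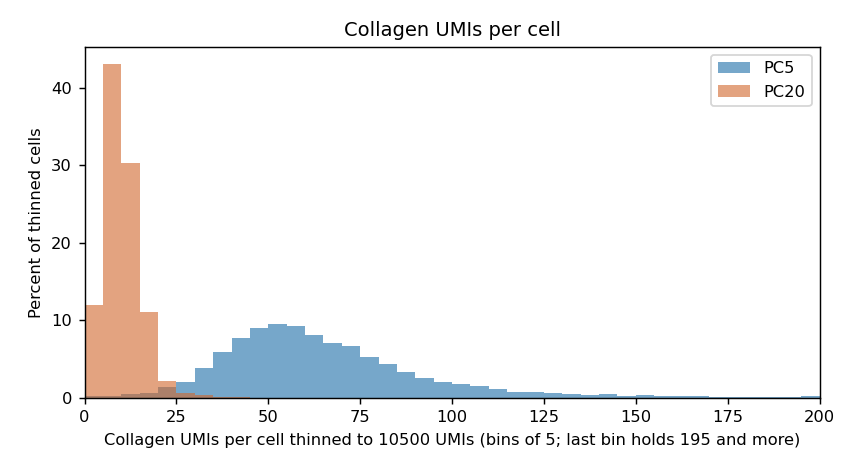
Percent of thinned cells (y axis) by number of collagen UMIs per cell (x axis, bins of 5) in PC5 and PC20. The PC20 cells lie mostly under 16 UMIs, their 90th percentile, and the PC5 cells spread widely around a median of 59.

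Members differed in how evenly cells shared them. After thinning, the 1% of PC5 cells with the most *Col1a2* held 3.07% of its UMIs, and for *Col4a1* this was 2.86%. *Col3a1* was more uneven, with 10th and 90th percentiles of 3 and 25 UMIs per cell and a variance of 8.17 times its mean. *Col6a3* and *Col12a1* were concentrated in few PC5 cells: the top 1% held 33.1% and 33.7% of their UMIs, and a single cell held up to 17 UMIs of *Col6a3* against a mean of 0.153. *Col15a1* was the most concentrated in PC5 among members with at least 100 thinned UMIs, with 51.4% in the top 1%. *Col18a1* was more uneven in PC5 than in PC20, with 17.6% and 6.66%, but it was also sparser there, and sparse genes give higher values of this measure.

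*Col1a1* was the most uneven member of PC20 among those with at least 100 thinned UMIs, and the 1% of thinned cells with the most of it held 61.1% of its UMIs. Over all kept cells its 1155 UMIs lay in 324 cells (6.82%), and 73 cells with 5 or more UMIs, a limit set after the values were seen, held 67.2% of them. A single cell held up to 50. These 73 cells, beside the cells with no *Col1a1*, had 229 and 95.5 CPM of *Col3a1*, 54.0 and 12.5 CPM of *Col11a1*, 87.3 and 22.8 CPM of *Col6a1*, 20.7 and 4.89 CPM of *Col6a2*, and 20.0 and 8.29 CPM of *Col12a1*. *Col8a1* was at 226 and 153 CPM, *Col4a4* at 10.2 and 5.40 CPM and *Col5a3* at 5.88 and 2.64 CPM. *Col1a2* had 1 UMI in these 73 cells, and *Col5a1* was at 56.6 and 64.7 CPM. *Ogn* was at 208 and 54.3 CPM and *Acta2* at 164 and 45.6 CPM, while *Krt18* was at 1177 and 900 CPM. So the PC20 cells with the most *Col1a1* also had higher CPM of several other chains, but hardly any *Col1a2* and no more *Col5a1*. These cells were not thinned, so a limit of 5 UMIs favours cells with more UMIs in all, and doublets were not called.

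Co-expression across the cells of a library was described by Pearson's *r* of log1p thinned UMIs, over members detected in 10% or more of thinned cells. Such values depend on how abundant a gene is and no doublet caller was run, so they are given as a description. Pairs of other genes of like abundance were not set beside them. In PC5 16 members formed 120 pairs with a median *r* of 0.107 (-0.02 to 0.53), and 28 pairs reached 0.2. The 21 fibrillar pairs had a median of 0.227, and the 95 pairs of unlike class had 0.0802. The closest pair was *Col1a1* with *Col1a2* at 0.534, followed by *Col4a1* with *Col4a2* at 0.450 and *Col1a1* with *Col3a1* at 0.430.

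Grouping at an *r* of 0.2 gave 1 group in PC5, with *Col1a1*, *Col1a2*, *Col3a1*, *Col5a1*, *Col5a2*, *Col4a1* and *Col4a2*. It crosses the classes, since *Col4a1* had an *r* of 0.398 with *Col3a1* and 0.390 with *Col1a2*. Its members are also the 7 collagen genes with the most UMIs in PC5, and the part of abundance in this grouping was not tested. The other 9 members joined no group. *Col16a1*, *Col18a1* and *Col7a1* were the most apart, with median *r* values to the other members of 0.0340, 0.0600 and 0.0585. *Col11a1* was the fibrillar chain least tied to its class, with a closest *r* of 0.132.

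In PC20 11 members formed 55 pairs with a median *r* of 0.0578 (0.00 to 0.19), and none reached 0.2, so no group was formed. *Col6a1* with *Col11a1* at 0.191 and *Col4a1* with *Col4a2* at 0.185 were the highest. *Col6a3* had a median *r* of 0.0243 to the other members and 0.0457 with *Col6a1*, its partner chain. Most of these members were less abundant in PC20, where lower values cannot be told apart from fewer UMIs per cell. *Col4a5* and *Col8a1* were not, with slightly higher CPM in PC20, and their *r* was 0.158 in PC5 and 0.0936 in PC20. *Col18a1*, at 20.7 CPM in PC5 against 74.2 CPM in PC20, went the other way with both. Its *r* with *Col8a1* was 0.0607 in PC5 and 0.0762 in PC20, and with *Col4a5* 0.00714 and 0.0245.

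**Figure D4:**
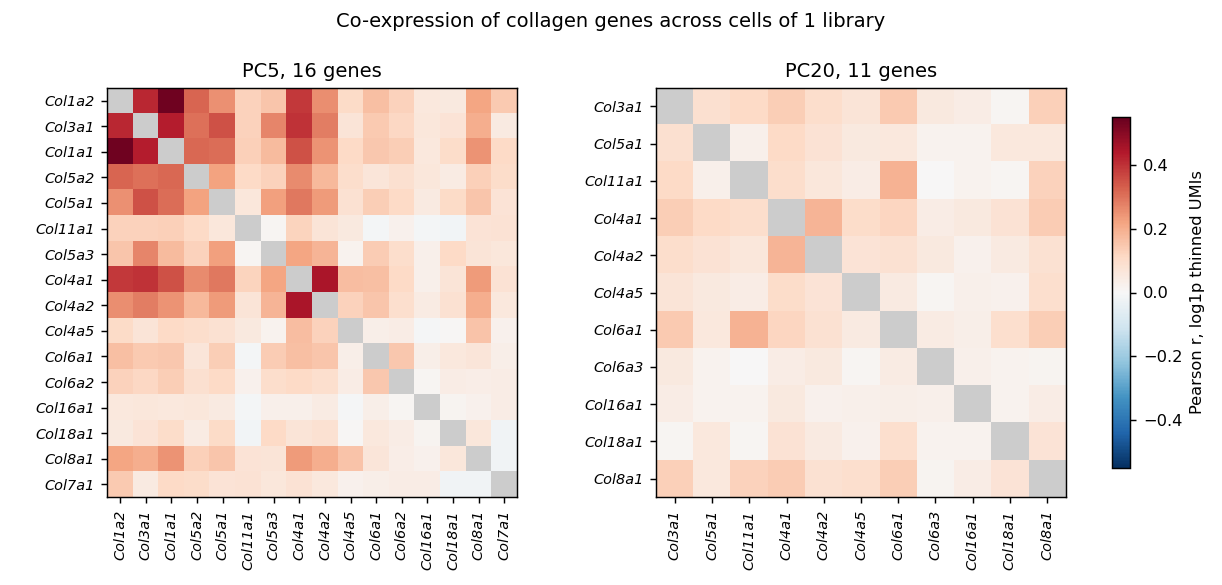
Pearson's *r* of log1p UMIs across thinned cells for pairs of collagen genes detected in 10% or more of thinned cells, in 8847 PC5 cells and 4474 PC20 cells, ordered by class, with the diagonal in grey. A block of abundant fibrillar and type IV chains stands out in PC5, up to 0.534, and the PC20 values stay at or below 0.191.

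Among 7235 other genes, those with the highest *r* to the summed collagen UMIs of PC5 cells were *Sparc* (0.526), *Nid1* (0.475), *Fstl1* (0.436), *Serpinh1* (0.436), *Scd2* (0.411), *Postn* (0.386), *Loxl2* (0.366), *Fbn1* (0.352), *Hmgcs1* (0.347) and *Cthrc1* (0.336). SPARC binds collagen outside the cell, nidogen links type IV collagen to laminin, SERPINH1 is the collagen chaperone of the endoplasmic reticulum and LOXL2 cross-links collagen. *Scd2* and *Hmgcs1* belong to fatty acid and sterol synthesis. In PC20, among 7098 genes, the highest were *Ahnak* (0.364), *Fn1* (0.343), *Scd2* (0.342), *Sparc* (0.330), *App* (0.321), *Dcbld2* (0.318), *P4ha1* (0.312), *Rock2* (0.295), *Ncam1* (0.289) and *Crim1* (0.286). *Sparc* and *Scd2* were in the first 10 of both libraries.

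In PC5 the lowest *r* values were those of *Rpl19* (-0.29), *Rpl38* (-0.29), *Ppia* (-0.29), *Hint1* (-0.28) and *Rps27a* (-0.27), and in PC20 those of *Rps23* (-0.39), *Rps15a* (-0.39), *Rps3* (-0.38), *Rplp1* (-0.37) and *Rps27a* (-0.37). Thinned cells have a fixed total, so abundant genes and all others trade off against each other in these values.

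*Sparc* and *Serpinh1* did not share the difference between the libraries. *Sparc* was at 1062 CPM in PC5 against 1171 CPM in PC20, and *Serpinh1* at 726 and 905 CPM, while *Nid1* was at 1705 and 71.5 CPM, *Fstl1* at 635 and 15.4 CPM and *Postn* at 80.9 and 0.0105 CPM.

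Single members had company of their own, listed here as the 3 closest non-collagen genes of members picked after their values were seen. For *Col6a3* in PC5 these were *Trp53i11* (0.254), *Postn* (0.217) and *Fmo2* (0.212), for *Col12a1* in PC5 *Postn* (0.186), *Thbs2* (0.166) and *Clu* (0.166), and for *Col5a3* in PC5 *Nrep* (0.297), *Man1a* (0.238) and *Plod2* (0.221). In PC20 they were *Ckb* (0.268), *Mylk* (0.216) and *Timp3* (0.198) for *Col1a1*, *Ogn* (0.261), *Cyr61* (0.202) and *Cp* (0.202) for *Col11a1*, and *Sparc* (0.253), *Scd2* (0.248) and *Mgp* (0.231) for *Col3a1*.

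Cells in the cycle were compared with the rest of their library by a UMI of *Mki67* or *Top2a*, which marked 3147 of 8847 thinned PC5 cells and 2575 of 4474 in PC20. All collagen UMIs together were slightly lower in these cells, by a log2 ratio of -0.09 (-0.10 to -0.08) in PC5 and -0.17 (-0.20 to -0.14) in PC20. The type I chains of PC5 were close to even, with 0.03 (0.02 to 0.05) for *Col1a2* and -0.02 (-0.05 to 0.00) for *Col1a1*. Lower in PC5 cycling cells were *Col18a1* at -0.81 (-0.96 to -0.66), *Col12a1* at -0.60 (-0.83 to -0.38), *Col5a3* at -0.57 (-0.69 to -0.45) and *Col8a1* at -0.44 (-0.49 to -0.38). Higher were *Col11a1* at 0.38 (0.30 to 0.47) and *Col7a1* at 0.12 (0.06 to 0.18).

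In PC20 *Col1a1* was at -0.85 (-1.21 to -0.50), *Col6a1* at -0.70 (-0.87 to -0.53) and *Col11a1* at -0.54 (-0.77 to -0.31), the last with a sign opposite to that in PC5. *Col18a1* was at -0.30 (-0.40 to -0.20) and *Col8a1* at -0.25 (-0.32 to -0.19), below 0 in both libraries. *Col4a2* was at 0.01 (-0.07 to 0.08). Cells are not replicates of a culture, so these values describe the 2 libraries.

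**Figure D5:**
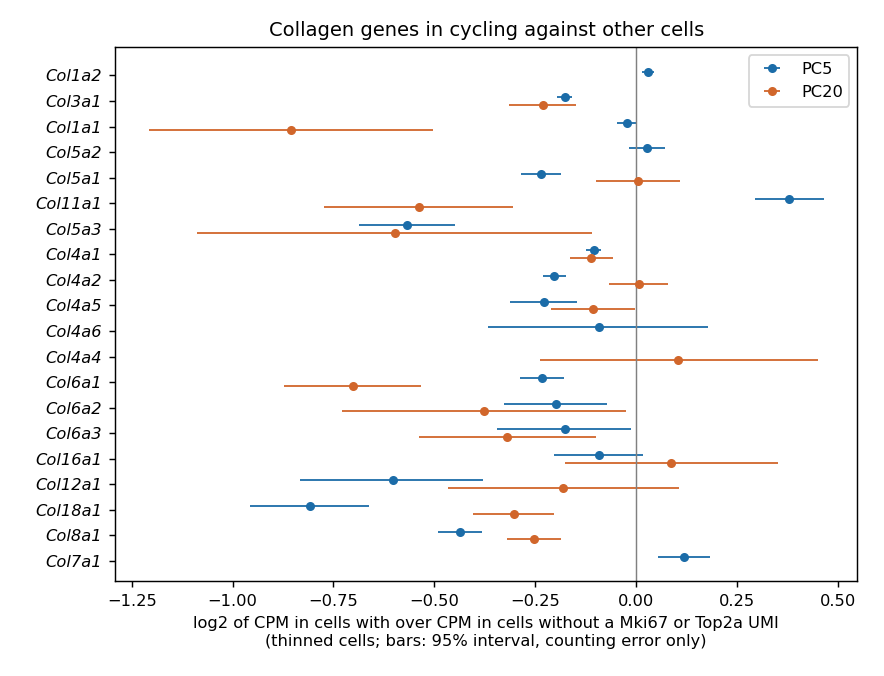
Log2 of CPM in cells with over CPM in cells without a *Mki67* or *Top2a* UMI, for expressed collagen genes with at least 100 UMIs in the thinned cells of a library, with 95% intervals for counting error as bars. Most points lie left of 0, *Col18a1* is at -0.81 in PC5, and *Col11a1* is at 0.38 in PC5 and -0.54 in PC20.

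The genes that process collagen were measured beside the family. Of 31 listed, 26 were expressed, of which 6 were at least 2-fold higher in PC5, 7 at least 2-fold higher in PC20 and 13 within 2-fold, where 17.9% and 19.1% of all expressed genes were past 2-fold in these directions. Their median log2 ratio was 0.21. Of the 6, *Adamts2* passed the 10% limit only in PC5, and of the 7, *P4ha3*, *Pcolce2* and *Loxl4* passed it only in PC20. For such genes the limit favours calls in the direction found. Catalytic subunits of the prolyl hydroxylase, which makes the helix stable, were higher in PC20: *P4ha1* was at 176 CPM in PC5 against 470 CPM in PC20 and *P4ha2* at 27.7 and 86.2 CPM, while the shared subunit *P4hb* was at 460 and 382 CPM. *Ppib*, an isomerase of the same pathway, was at 209 and 532 CPM. The opposite held for the lysyl hydroxylase *Plod2*, at 472 and 103 CPM, and for *Crtap*, at 116 and 30.4 CPM.

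Outside the cell, *Bmp1*, which cuts the C-propeptide of fibrillar procollagens, was at 130 CPM in PC5 against 9.35 CPM in PC20, giving a log2 ratio of 3.80 (3.73 to 3.87). *Pcolce*, its enhancer, had a log2 ratio of -1.45 (-1.48 to -1.41). The N-propeptide protease *Adamts14* was at 29.1 and 7.20 CPM, and *Loxl2* at 243 and 43.6 CPM, while *Lox* lay within 2-fold at 269 and 138 CPM. Of 10 receptor genes, 6 were expressed. At least 2-fold higher in PC5 were 3, where 17.9% of all expressed genes were, and none in PC20, where 19.1% were. Of the 3, *Itga1* and *Itga10* passed the 10% limit only in PC5, where they were higher, and only *Ddr1* passed it in both libraries. The integrin chain *Itga1*, which binds type IV collagen, was at 14.6 and 0.895 CPM, and the receptor kinase *Ddr1* at 50.3 and 13.1 CPM. *Ddr2*, a receptor kinase for fibrillar collagens, had a log2 ratio of -0.06 (-0.09 to -0.03).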

How the data were processed

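Single-cell libraries of cultured primary mouse brain PCs at passage 5 and passage 20, 1 each, were grouped as labelled. The authors processed the reads with Cell Ranger (version 5.0 per the labels) against mm10 and deposited UMI counts per gene and cell barcode, called as cells and not normalized. No deposited column of another sample was present.

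The filter on cells followed the study (above 1000 genes, below 20% mitochondrial UMIs). Counts were summed over kept cells to CPM. Ratios have no pseudocount. Intervals at the 95% level are exact, Poisson for levels, conditional binomial for ratios and Clopper-Pearson for shares. The thinned depth is the highest multiple of 500 under the 10th percentile of cell totals. Doublets were not called and cells were not clustered. Co-expression used average linkage on 1 minus *r*, cut at 0.2. With 1 library a passage no test was made, and 2-fold calls are by size alone. Every member is named. Also named are processing and receptor genes past 2-fold with at least 10 CPM, the 10 highest and 5 lowest correlates, and cell type markers. Some enzymes and receptors within 2-fold or below 10 CPM, the markers shown, and the single cells and closest genes marked so in the text, were picked after values were seen. The members, classes and lists were chosen with earlier results of these data known. Gly-X-Y runs were read from GENCODE M21 coding sequences on GRCm38, since protein tables were not used here. Promoter windows are RefSeq's, GRCm38.p6. The scripts were tested on simulated data. Python 3.11.15, NumPy 2.4.6, SciPy 1.17.1 and pandas 2.3.3 were used.

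Values were recomputed with other filters on cells, without cycling cells, after thinning, with a total without mitochondrial and ribosomal protein genes, as means over cells, with other detection limits, after centring on the median gene, with other correlation measures and cuts, and with another seed.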

Additional observations from a re-analysis of the deposited data

How the results depend on the processing

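The direction of the family's difference held under each alternative run. Of the 20 expressed members, 18 kept the sign of their log2 ratio under the 6 alternatives that change it. *Col6a3* and *Col12a1*, both near 0, did not, and 0 of 20 changed side of the 2-fold limit. The number of members at least 2-fold higher in PC5 was 8 of 13 when detection in 10% of cells was required in both libraries. Members below that limit in PC20 then drop out. It was 13 to 18 otherwise, the 18 being of 25 members at a limit of 1% of cells. The number at least 2-fold higher in PC20 was 1 with both libraries required and 1 among thinned cells. In both cases *Col4a4* no longer counted as expressed. Shares of all expressed genes past 2-fold are given only for the 10% limit in either library, so these counts have no matched share. The median log2 ratio was 1.63 with both libraries required, 2.07 in thinned cells and 2.08 with a limit of 1% of cells.

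The collagen share of UMIs in PC5 was 0.606% with a stricter cell filter, 0.602% with no filter, 0.623% in cells without *Mki67* or *Top2a* UMIs, 0.614% in thinned cells and 0.936% of a total without mitochondrial and ribosomal protein genes. In PC20 the last 3 were 0.101%, 0.0919% and 0.144%. Without thinning the median *r* was 0.152 over PC5 pairs, 0.335 over PC5 fibrillar pairs and 0.109 over PC20 pairs. With a limit of 5% of thinned cells it was 0.0832 over PC5 pairs, and without cycling cells 0.262 over PC5 fibrillar pairs. The cut of *r* set the groups: at 0.1 PC5 had 1 group of 11 and PC20 1 of 6, and at 0.3 PC5 had 1 of 5 and PC20 none.

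No paired analysis was possible because each passage has 1 library. Depth limits the 19 members found in under 1% of cells, whose ratios rest on few UMIs. Some ratios of other members also do, such as those of *Col1a2*, *Col4a6* and *Col15a1*, with 9, 6 and 5 UMIs in PC20.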

Other observations

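*Nid1*, which joins the type IV collagen and laminin networks, had a log2 ratio of 4.58 between PC5 and PC20, larger than the 2.21 of *Col4a1* and the 1.74 of *Col4a2*. *Fbn1*, the main chain of microfibrils, was at 250 and 11.9 CPM, and *Cthrc1*, a secreted protein with a short collagen-like stretch, at 146 and 0.0680 CPM. *Fn1*, which forms a fibronectin matrix that collagen binds, was at 520 and 413 CPM. Of the collagen processing list, *Pcolce2* was at 0.453 and 7.34 CPM and *Loxl4* at 1.42 and 6.75 CPM, both higher in PC20.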
